A study of Mus musculus with 2 samples.

Results

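The cells described here were 989 primed pluripotent mouse cells in which Car4, Pim2 and Phlda2 together gave at least 3 UMIs (unique molecular identifiers, each standing for a captured transcript molecule). Of 21593 called cells 16841 were kept, and trio cells, as they are called here after the 3 choosing genes, were 5.87% of these (95% interval 5.52 to 6.24%, exact binomial). To be kept, a barcode needed 1000 or more genes and no more than 10% of its UMIs from mitochondrial genes. It asked for under 4 UMIs per 10000 of the naive genes Zfp42, Klf2, Esrrb and Nr5a2, and for at least 4 UMIs of the pluripotency genes Pou5f1 and Dnmt3b. It allowed at most 2 UMIs of 5 genes of long span (Ptprt, Anks1b, Hs3st4, Hdac9 and Ano3), under 2 of Meis2 and Fgf8, under 4 of the keratins Krt8 and Krt18, and under 2 of the primitive streak genes Mixl1, Mesp1, Lhx1 and Rspo3. These 22 genes chose the cells, so their own levels are a description, and they were left out of every count of genes.

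Droplet-based 3' single-cell RNA sequencing was described for 2 samples of a mouse line labelled Delmix: epiblast stem cells with no treatment, and embryoid bodies (aggregates that begin to differentiate) made from them and taken on day 2, with 1 sample per group. The labels name no allele, agent or strain for either sample. The deposited counts form 1 matrix whose tags carry names that no sample label has, so no cell could be given to either sample and the samples were not compared. All values come from 1 pooled library without replicates; no test, standard error or p-value was computed, and intervals are exact 95% intervals that cover counting error only. Trio cells held 7174786 UMIs, with a median of 6914 UMIs per cell (range 2051 to 22553), 2772 genes and 2.86% mitochondrial UMIs.

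They were set beside other cells of the same matrix. Low-marker primed cells (926 cells, median 5578.5 UMIs) met the same limits but had at most 2 choosing UMIs and at most 2 long gene UMIs. Long-gene primed cells (1029 cells, 6800 UMIs) had at least 3 long gene UMIs and at most 2 choosing UMIs, and 1199 primed cells (8489 UMIs) had at least 3 of each. Naive-like cells (3057 cells, 7601 UMIs) had at least 12 UMIs per 10000 of the 4 naive genes, and caudal-like cells (615 cells, 6780 UMIs) had at least 2 UMIs each of Meis2 and Fgf8. Levels are CPM, the UMIs of a gene summed over a set and scaled so that all sets have the same total. A gene was counted as higher or lower when its ratio on the log2(CPM + 1) scale reached 2-fold with at least 20 CPM in the higher set.

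Primed pluripotency is the state of the epiblast after implantation and of epiblast stem cells, which depend on FGF and Activin signals and can form all germ layers. On leaving the naive state, cells shut down genes such as Klf4 and Tfcp2l1 and turn on Fgf5, Otx2, Pou3f1 and the de novo DNA methyltransferases. Of the choosing genes, Car4 encodes a membrane-anchored carbonic anhydrase, Pim2 a serine/threonine kinase that promotes survival and translation, and Phlda2 an imprinted growth-restraining gene known from the placenta. Pou3f1 (Oct6) is a POU transcription factor that is turned on as the epiblast matures.

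Sequence just before the start of each choosing gene is shown because the 3 genes were read together as 1 mark. These windows of 250 bases come from RefSeq on GRCm38.p6, run 5′ to 3′ on the gene's own strand and end at the base before the start; RefSeq supplied all 3, and Pou3f1 had no entry in that table. Capitals mark matches, on either strand, to the TATA box TATAAA, the CCAAT box CCAAT, the GC box GGGCGG, the E-box CACGTG or the octamer ATGCAAAT, which POU factors are known to bind. Car4 lies at chr11:84957504-84957753 (plus strand), Pim2 at chrX:7878056-7878305 (plus strand) and Phlda2 at chr7:143502525-143502774 (minus strand).
Car4: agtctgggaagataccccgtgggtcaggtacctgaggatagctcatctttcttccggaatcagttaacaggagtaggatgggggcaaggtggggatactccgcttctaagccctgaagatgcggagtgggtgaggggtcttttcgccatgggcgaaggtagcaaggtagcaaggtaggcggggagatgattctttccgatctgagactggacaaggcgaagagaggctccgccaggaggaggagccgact
Pim2: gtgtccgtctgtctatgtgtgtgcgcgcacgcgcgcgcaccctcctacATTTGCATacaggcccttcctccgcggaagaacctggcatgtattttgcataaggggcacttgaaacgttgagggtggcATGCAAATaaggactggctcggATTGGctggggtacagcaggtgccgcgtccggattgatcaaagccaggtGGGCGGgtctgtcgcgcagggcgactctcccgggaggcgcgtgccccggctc
Phlda2: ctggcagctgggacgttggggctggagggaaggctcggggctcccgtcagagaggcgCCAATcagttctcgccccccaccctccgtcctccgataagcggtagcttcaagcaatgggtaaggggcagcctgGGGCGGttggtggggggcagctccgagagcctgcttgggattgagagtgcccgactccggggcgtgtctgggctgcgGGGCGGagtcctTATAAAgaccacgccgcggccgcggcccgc

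The windows did not look alike. The Car4 window held none of the motifs, with 56.4% G and C and 11 CpG dinucleotides. That of Pim2 held 2 octamers, ending 195 and 116 bases before the start, a CCAAT box on the reverse strand and a GC box, with 62% G and C and 22 CpG. The window of Phlda2 held a TATA box 30 to 25 bases before the start, a CCAAT box and 2 GC boxes, with 68.8% G and C and 21 CpG. Of 32851 RefSeq windows of this length, 1.60% held the octamer, 12.4% TATAAA, 33.8% CCAAT, 32.7% GGGCGG and 6.02% CACGTG, with medians of 52.4% G and C and 6 CpG. No motif searched was in all 3 windows, and the matches are a description of letters only.

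Pim2 carried most of the choosing. Pim2 (ENSMUSG00000031155) gave 3864 UMIs, or 72.0% of the choosing UMIs, and 958 of the 989 cells (96.9%) had at least 1. Car4 (ENSMUSG00000000805) gave 995 UMIs (18.5%) in 515 cells (52.1%), and Phlda2 (ENSMUSG00000010760) gave 508 (9.47%) in 331 cells (33.5%). Pim2 alone reached 3 UMIs in 687 trio cells (69.5%), Car4 alone in 118 (11.9%) and Phlda2 alone in 37 (3.74%). All 3 genes were seen together in 139 cells (14.1%), and 297 cells had Pim2 and neither of the others. Most trio cells thus showed only some of the 3 genes. Most cells stood close to the limit: 283 had exactly 3 choosing UMIs, the median was 5, 87 had 10 or more, and the highest had 23.

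The choosing genes were also present elsewhere. Pim2 stood at 539 CPM in trio cells (522 to 556), 492 in primed cells with both, 115 in low-marker and 94.7 in long-gene primed cells, 271 in caudal-like cells and 48.5 in naive-like cells. Car4 stood at 139 CPM (130.2 to 148) in trio cells, 42.3 in low-marker primed cells and 14.7 in naive-like cells, and Phlda2 at 70.8 CPM (64.8 to 77.2), 29.0 and 35.7. These differences follow from the rule. Free RNA, read in 72027 uncalled barcodes of 150 to 300 UMIs, held 170.4 CPM of Pim2, 42.6 of Car4 and 43.1 of Phlda2, so the low-marker cells were at or under the free RNA level for all 3. With every cell thinned to 2000 UMIs, 63.8% of trio cells had a UMI of Pim2, 23.3% of Car4 and 13.0% of Phlda2 (96.9%, 52.1% and 33.5% unthinned). Fibroblast-like cells (438 cells with at least 10 collagen UMIs, median 7777.5 UMIs), which should lack Car4, had 8.01%, 2.52% and 0.915% thinned.

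The 3 genes went together only weakly across primed cells. Each was read in primed cells with at most 2 long gene UMIs that were picked by the other genes, so the choice did not use it. Car4 stood at 102 CPM (94.3 to 111) in 801 cells with at least 3 UMIs of Pim2 and Phlda2, and at 83.8 CPM (71.8 to 97.3) in 365 cells with none. Pim2 stood at 377 CPM (349 to 407) in 215 cells with at least 3 UMIs of Car4 and Phlda2, and at 346 CPM (331 to 362) in 892 cells with none. Phlda2 stood at 51.6 CPM (46.2 to 57.5) in 882 cells with at least 3 UMIs of Car4 and Pim2, and at 57.6 CPM (47.2 to 69.6) in 326 cells with none. The intervals overlapped for each of the 3 genes, and for Phlda2 the level was the lower one in cells rich in the others.

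Trio cells and long-gene cells were not opposite ends of the primed cells. Of 4143 cells that met the limits on naive, pluripotency, caudal, keratin and streak genes, 23.9% were trio cells (22.6 to 25.2%), and more cells, 1199, passed both the choosing and the long gene minimum. With cells thinned to 4000 UMIs, at least 3 choosing UMIs were found in 605 of 1879 cells (32.2%, 30.1 to 34.4%) with at most 2 long gene UMIs. The share was 245 of 850 cells (28.8%, 25.8 to 32.0%) with at least 3 long gene UMIs. Unthinned, the shares were 51.6% and 53.8%, in the other order.

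**Figure D1:**
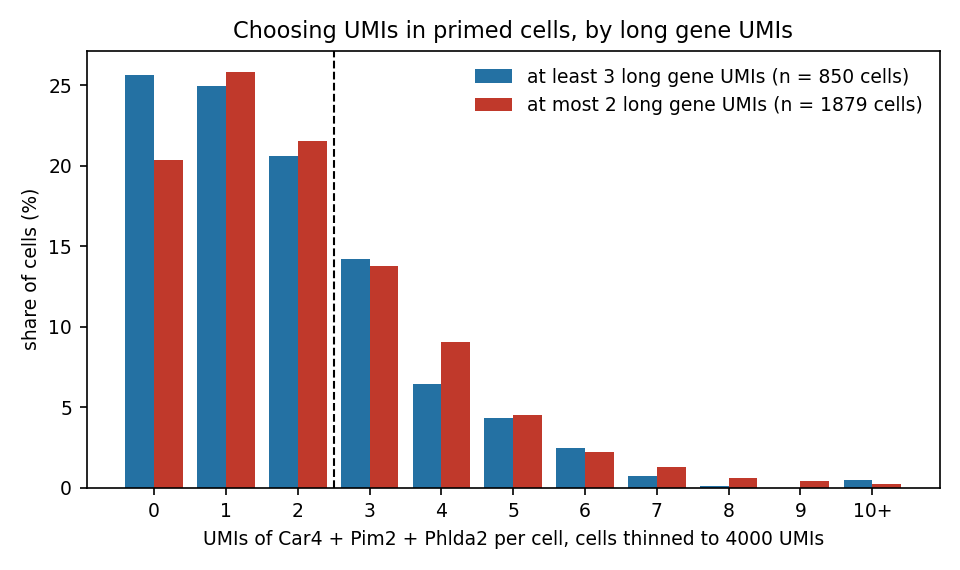
Share of primed cells (%) by the number of Car4, Pim2 and Phlda2 UMIs per cell after thinning to 4000 UMIs, for 1879 cells with at most 2 long gene UMIs (red) and 850 cells with at least 3 (blue). The dashed line is the limit of the rule. Both distributions fall off without a gap at the limit, and 32.2% and 28.8% of the cells lie to its right.

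Fst, Fgf5, Pou3f1 and Dnmt3a, which the rule did not use, stood higher in trio cells than in the other primed sets and naive-like cells. Fgf5, Pou3f1 and Dnmt3a are on the list of primed and formative epiblast genes read here, and Fst is not. All 4 were among the 20 highest ratios of trio to low-marker cells, so their order over those sets is a description. Fst (ENSMUSG00000021765), which encodes follistatin, a secreted inhibitor of Activin, stood at 89.1 CPM (82.3 to 96.2) in trio cells, 68.8 in primed cells with both, 47.7 (42.0 to 53.8) in low-marker and 43.1 in long-gene primed cells, and 10.4 in naive-like cells. Trio cells were highest of the primed sets and their interval overlapped none of the others, while caudal-like cells were higher, at 324 CPM. Fgf5 (ENSMUSG00000029337), the FGF ligand classically used to mark primed cells, stood at 64.5 CPM (58.8 to 70.7), 49.7, 43.4 (38.1 to 49.3), 33.4 and 9.18 in the same order. Pou3f1 (ENSMUSG00000090125), a marker given with the set, stood at 255 CPM (244 to 267), 214, 190.4 (179 to 202), 175 and 51.9. Dnmt3a, a de novo DNA methyltransferase, stood at 133 CPM (125 to 142), 115, 100.1 (91.9 to 109), 89.1 and 49.4. For each of these 4 genes the order of the sets was the same, with trio cells first and naive-like cells last of the 5.

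Free RNA held 35.0 CPM of Fst, 24.3 of Fgf5, 69.6 of Pou3f1 and 89.6 of Dnmt3a. With cells thinned to 2000 UMIs, 34.1% of trio cells had a UMI of Pou3f1 (66.0% unthinned) and 25.7% of low-marker primed cells, against 6.41% of fibroblast-like cells (median depths before thinning 6914, 5578.5 and 7777.5 UMIs). For Fgf5 the thinned shares were 11.4% (9.51 to 13.6%), 8.49% (6.77 to 10.5%) and 0.915%. For Dnmt3a they were 22.6% (20.1 to 25.4%), 19.2% (16.7 to 21.8%) and 9.15%. The intervals of trio and low-marker cells overlapped for both genes. For Fst they were 15.5%, 8.49% and 10.3%, so the fibroblast-like share of Fst lay between those of the primed sets; fibroblasts themselves can express this gene.

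**Figure D2:**
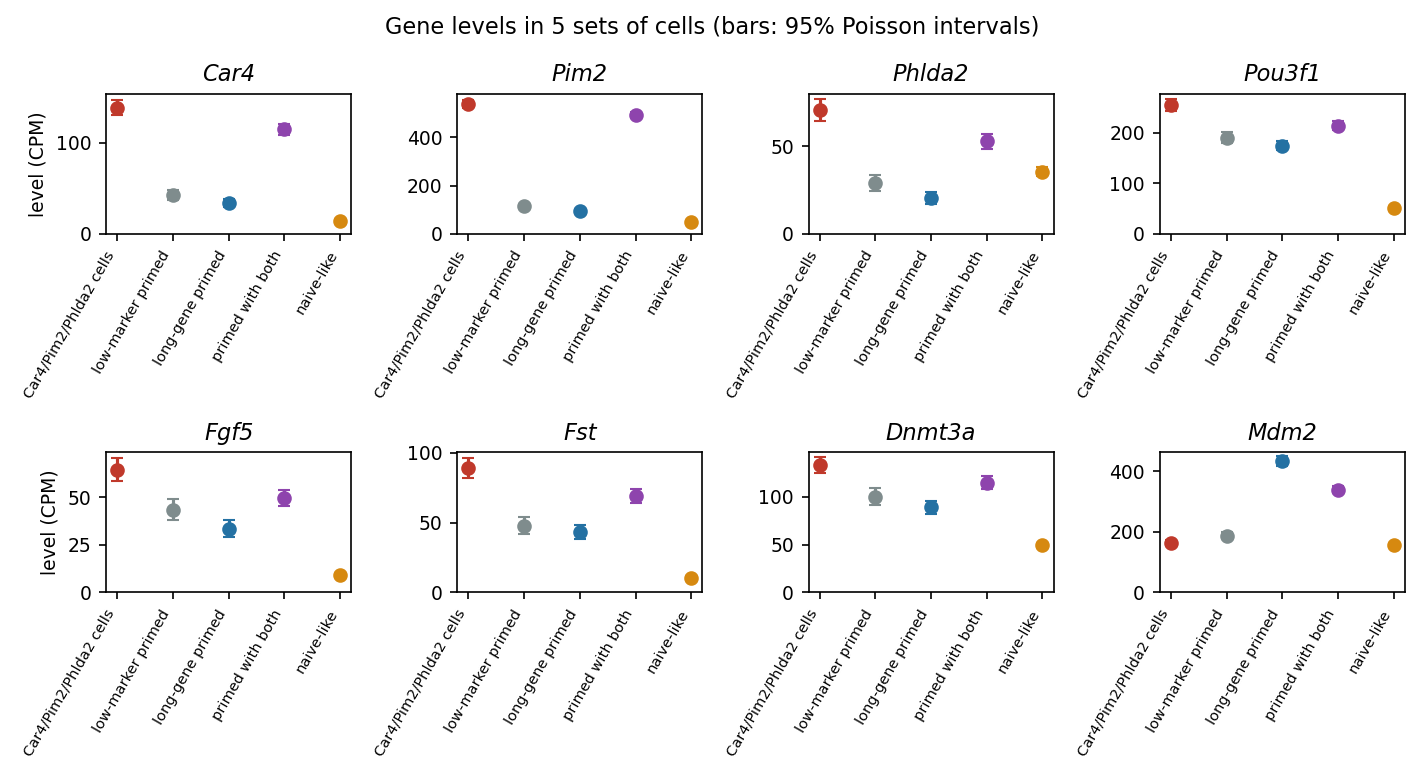
Levels (CPM, linear axes from 0) of 8 genes in 5 sets of cells; points are CPM of summed UMIs and bars are exact 95% Poisson intervals. Car4, Pim2 and Phlda2 chose the sets; Pou3f1, Fgf5, Fst and Dnmt3a were highest in Car4/Pim2/Phlda2 cells, and Mdm2, a p53 target, was highest in long-gene primed cells at 434 CPM.

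Against low-marker primed cells, the nearest set, no gene of 6524 tested was at least 2-fold higher in trio cells (0.0%) and 12 were lower (0.184%). The largest ratios of the text's rule were those of Fst at a log2 ratio of 0.89, Fgf5 at 0.56, Pqbp1 at 0.46, Gemin5 at 0.45, Aldh1a3 at 0.44, Ccdc47 at 0.43, and Micu2 and Pou3f1 at 0.42. The median over all genes was 0.02. Aldh1a3 stood at -0.01 with the rules applied to thinned cells and at -0.10 with 3 UMIs of Pim2 alone as the mark. The 12 lower genes were Spp1, Mmp3, Zscan4d, Zscan4e, Zfp560, Pramel20, Gm21761, and Eif1ad4, Eif1ad7, Eif1ad8, Eif1ad10 and Eif1ad15. Several belong to multigene families with near-identical copies, whose counts are uncertain. Most are genes of two-cell-like cells, a rare state with transcripts of the cleavage-stage embryo, and Spp1 and Mmp3 are expressed by fibroblasts. The 7 two-cell-like markers outside the rule summed to 17.4 CPM in trio cells and 105 in low-marker cells, and 13 fibroblast markers summed to 259 and 313 CPM, against 13041 in fibroblast-like cells. When cells with at least 3 UMIs of two-cell-like or of collagen, Mmp3 and Spp1 genes were left out, no gene was lower. This filter was chosen after the calls were seen. It removes cells by UMIs of some of the called genes themselves (Zscan4d, Eif1ad10, Mmp3 and Spp1), so the loss of calls cannot tell where they came from.

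The primed and formative epiblast list had 15 of its 19 members outside the rule above zero in this comparison, out of 18 at 20 CPM or more, with a median log2 ratio of 0.16; over all genes 54.6% stood above zero. The G2 and M phase list had 29 of 30 above zero with a median of 0.16, while 13 of 30 S phase genes did, with a median of -0.02. Depth moved with the G2 and M phase list: in cells of 5000 to 8000 UMIs 24 of 30 G2 and M phase genes stood above zero, with a median of 0.09. Its part in the result was not tested further. The p53 targets had a median of -0.12, and 10 of 12 core pluripotency genes stood above zero with a median of 0.10. The sum of these core genes was lower in trio cells, at 3527 CPM (3484 to 3571) against 3648 (3597 to 3699) in low-marker cells.

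Some of these small differences appeared again, mostly smaller among the highest genes, in a second pair of sets that shares no cell with the first. Primed cells with both marks were set against long-gene primed cells, which differ from them by rule in choosing UMIs alone; no gene of 6840 was at least 2-fold higher (0.0%) and 2, Mcam and Mmp3, were lower (0.0292%). Of the 20 genes with the highest ratio of trio to low-marker cells, 16 stood above zero in the second pair, where 62.0% of the 3371 genes with at least 50 CPM did. Their median was 0.41 in the first pair and 0.17 in the second. Of the 20 lowest, 19 stood below zero in the second pair (38.0% of all genes), with medians of -0.39 and -0.30. The ratios of the first and second pair were 0.89 and 0.66 for Fst, 0.56 and 0.56 for Fgf5, 0.46 and 0.41 for Pqbp1, 0.42 and 0.29 for Pou3f1, 0.41 and 0.36 for Dnmt3a, and 0.39 and 0.51 for Xaf1. Both pairs differed in depth, with medians of 6914 and 5578.5 UMIs in the first and 8489 and 6800 in the second. In cells of 5000 to 8000 UMIs the second pair had lower ratios of 0.08 for Pou3f1, 0.21 for Dnmt3a and 0.22 for Xaf1. At that depth Fst stood at 0.62, Fgf5 at 0.78 and Pqbp1 at 0.61. Other genes did not repeat: Acsl4 went from 0.41 to 0.04 and Stx16 from 0.39 to -0.01. Among the lowest genes, Sfn was at -0.44 and -0.63, Lgals1 at -0.41 and -0.42, and the interferon-inducible Ifitm3 at -0.40 and -0.38.

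**Figure D3:**
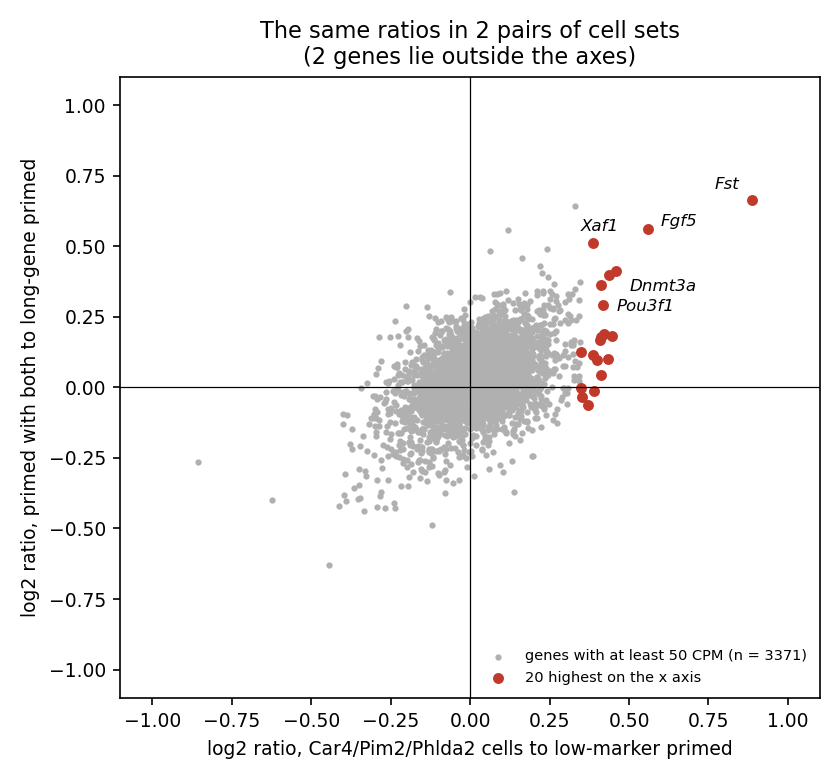
Log2 ratio of CPM for 3371 genes with at least 50 CPM, trio to low-marker primed cells (x axis) and primed cells with both marks to long-gene primed cells (y axis); red points are the 20 genes highest on the x axis, and 2 genes lie outside the axes. Fst, Fgf5 and Xaf1 lie to the upper right of the main cloud, and 16 of the 20 red points lie above zero on the y axis.

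Fst, Fgf5, Pou3f1 and Dnmt3a had ratios above zero against low-marker cells under all 18 alternatives. The ranges were 0.476 to 0.998, 0.38 to 0.74, 0.33 to 0.61 and 0.23 to 0.59. Not all alternatives could change a ratio. A minimum of 50 CPM and no minimum only change which genes are counted, so they repeated the reported ratios. Centring on the median, a pseudocount of 5 CPM and totals without mitochondrial and ribosomal protein genes moved them little. Fst stood at 0.87, 0.84 and 0.87 in place of 0.89. These genes were among the 20 highest of this same ratio, so the alternatives do not test them independently. In the second pair of sets Pou3f1 ranged from -0.01 to 0.40, and Fst, Fgf5 and Dnmt3a stayed above zero. The settings by Pim2 alone and by Car4 and Phlda2 left this second pair unchanged. In cells of 5000 to 8000 UMIs the levels in trio and low-marker cells were 87.5 and 43.3 CPM for Fst, 63.9 and 43.0 for Fgf5, 249.8 and 179 for Pou3f1, and 118 and 95.5 for Dnmt3a. Otx2, a homeobox factor needed to leave the naive state, was found at 97.4 CPM in trio and 90.0 in low-marker cells, with overlapping intervals. Its ratio was above zero under 16 of 18 alternatives, counting those of the minimum level that cannot change it.

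The 4 genes were also read by each choosing gene alone. Depth differed between the groups, and these levels were not read at matched depth. In cells with at most 2 long gene UMIs, medians were 5565 UMIs without Pim2 and 6814 with 2 or more. By Car4 they were 6057.5 and 7117, and by Phlda2 6059 and 7433. With at least 3 long gene UMIs they were 6642 and 8272.5 by Pim2, 7198 and 8918 by Car4, and 7390 and 9258 by Phlda2. In primed cells with at most 2 long gene UMIs, Fst went with Pim2: it stood at 41.6 CPM (34.3 to 49.9) in 473 cells without a Pim2 UMI and at 90.4 in 1001 cells with 2 or more. By Car4 it stood at 67.3 and 90.7 CPM (78.2 to 104.5). In cells with at least 3 long gene UMIs, Fst was at 29.8 and 69.4 CPM by Pim2 but at 60.2 and 57.4 by Car4. Fgf5 and Pou3f1 stood higher with 2 or more UMIs of either gene than with none. By Car4 Fgf5 stood at 49.2 CPM in cells without it and at 84.9 (72.9 to 98.4) in 285 cells with 2 or more, and Pou3f1 at 203 and 301. By Pim2 Pou3f1 stood at 165 and 253 CPM. Fgf5 by Pim2 stood at 49.2 (41.3 to 58.2) and 62.8 CPM (57.2 to 68.9), with overlapping intervals. In 441 cells with 1 Pim2 UMI Fgf5 was lower than in either, at 42.3 CPM (34.9 to 50.8). In cells with at least 3 long gene UMIs, Car4 again split Fgf5 at 36.8 and 59.7 and Pou3f1 at 178 and 251, and Pim2 split them at 31.6 and 48.1 and at 171 and 213. With at most 2 long gene UMIs, Dnmt3a stood at 109 and 146 CPM by Car4 and at 103 and 130 by Pim2. With at least 3 it stood at 85.4 and 116 CPM by Pim2, but at 101 and 109 by Car4, with overlapping intervals. By Phlda2, in cells with at most 2 long gene UMIs, Pou3f1 stood at 226 (216 to 236) and 211 CPM (184 to 240), Dnmt3a at 118 and 113, Fst at 68.5 (63.2 to 74.0) and 85.9 (69.5 to 105), and Fgf5 at 55.5 (50.8 to 60.5) and 73.3 (58.2 to 91.1). The intervals of these pairs overlapped. In cells with at least 3 long gene UMIs, Fst and Fgf5 had the other order by Phlda2, at 59.7 and 51.2 CPM and at 44.1 and 38.7. Pou3f1 stood there at 198 and 191 CPM and Dnmt3a at 102 and 111, and the intervals of all these pairs overlapped too.

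Genes beside Pim2 on the X chromosome stood higher with it; this was looked for after Pqbp1, which lies 11.1 kb from Pim2 in GENCODE M21, had been seen among the highest genes. All 9 tested genes within 200 kb of Pim2 stood above zero in trio against low-marker cells, with a median log2 ratio of 0.34 (0.02 to 0.52). They were Slc35a2 at 0.52, Pqbp1 at 0.46, Eras at 0.45, Suv39h1 at 0.42, Otud5 at 0.34, Tfe3 at 0.32, Timm17b at 0.30, Gripap1 at 0.20 and Hdac6 at 0.02. Of 8 genes from there to 2 Mb, 4 stood above zero with a median of 0.01, and of 258 genes farther away 139 did, also with a median of 0.01. In primed cells with at most 2 long gene UMIs, 8 of the 9 near genes stood higher in cells with 2 or more Pim2 UMIs than in cells with none, with a median of 0.42. In cells with at least 3 long gene UMIs it was 8 of 10, with a median of 0.27, led by Eras at 22.9 against 11.1 CPM. The count was 4 of 9, with a median of -0.04, when cells were split by Phlda2, and 7 of 9, with a median of 0.13, when they were split by Car4. In cells with at least 3 long gene UMIs the Phlda2 split gave 6 of 10 (0.08) and the Car4 split 7 of 11 (0.19). In cells of 5000 to 8000 UMIs the Pim2 splits gave 9 of 9 (0.32) and 9 of 10 (0.28), and trio against low-marker cells gave 9 of 9 with a lower median, 0.20 in place of 0.34. In primed cells with both against long-gene cells 6 of 10 stood above zero, with a median of 0.15, and 6 of 8 (0.22) at that depth. Neither Car4, with 3 tested genes within 200 kb, nor Phlda2, with 2, had a neighbour past a log2 ratio of 0.20 in trio against low-marker cells. Slc35a2 and Otud5 lie 0.596 and 1.64 kb from Pim2, and how reads at such gene ends were assigned is not given in the sources used here. Gene copy number was not measured.

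Against long-gene primed cells, 8 of 6838 genes were at least 2-fold higher in trio cells (0.117%) and 123 were lower (1.8%), 131 in all (1.92%). The higher genes were Tas1r1, Hopx, Eomes, Dqx1, 1700034P13Rik, Eras, Zfp36l2 and Fst. Eomes, a T-box factor of the primitive streak and trophoblast, stood at 22.2 CPM against 9.17, and Zfp36l2, an RNA-binding protein that speeds mRNA decay, at 85.6 against 41.3. The ratios were 0.99 for Sgk1 and Xaf1, 0.82 for Aldh1a3 and 0.77 for Zfp428. The lowest genes of the text's rule were Adamtsl1 and Spp1 at log2 ratios of -2.43 and -2.27, Nfia at 20.3 against 85.0, Sh3rf3 at 13.4 against 52.0, and Gria3 at 45.0 against 162. With a pseudocount of 5 CPM only 1 gene was higher. With the rules applied to thinned cells Spp1 stood at 0.38.

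Gene span went with this comparison. The median log2 ratio was 0.08 to 0.11 for genes under 20 kb, -0.01 at 20 to 50 kb, -0.15 at 50 to 100 kb, -0.28 at 100 to 200 kb and -0.48 above 200 kb, where 50 of 473 genes were lower. The 123 lower genes, 1.8% of all tested, had a median span of 142 kb, against 29.9 kb for all tested genes. Long-gene cells were picked by 5 long genes, which the rule of trio cells limits. A list of 12 noncoding RNAs, most of them known to stay in the nucleus, moved with it: it summed to 8928 CPM in trio, 8412 in low-marker, 11440 in both and 12324 in long-gene cells, and its part in the gradient was not tested. Against low-marker cells, from which trio cells do not differ in the long gene limit, the medians of the same bins lay between -0.02 and 0.04. A gradient was also seen against caudal-like cells. These were not picked by long genes, but unlike trio cells they had no limit on them, and the part of that limit was not tested. Against caudal-like cells the median was -0.15 at 50 to 100 kb and -0.24 at 100 to 200 kb. Above 200 kb it was -0.53, with 108 of 469 genes lower, against 6.05% of all tested genes. Against naive-like cells the bin medians lay between -0.08 and 0.09.

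**Figure D4:**
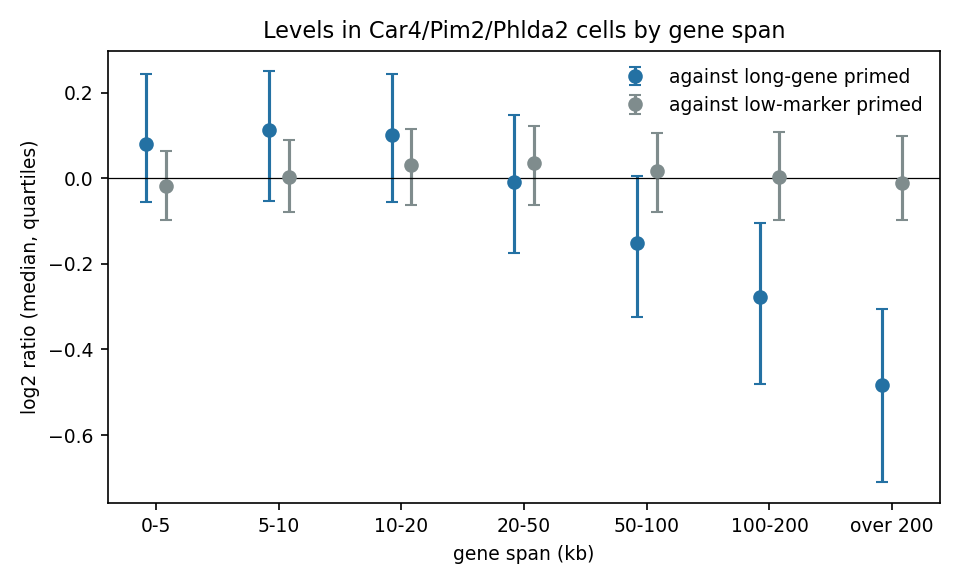
Log2 ratio of CPM by gene span in kb (GENCODE M21), as the median and quartiles over genes, for trio cells against long-gene primed cells and against low-marker primed cells. The first falls from 0.08 in the shortest bin to -0.48 above 200 kb and the second stays near zero.

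Among 20 lists with at least 8 members at 20 CPM or more, the p53 targets stood farthest below in trio cells against long-gene cells. Of 14 members, 4 were at least 2-fold lower, against 1.8% of all tested genes. In all, 13 stood below zero and the median was -0.51 (all genes -0.04). Mdm2, the ubiquitin ligase that p53 induces against itself, stood at 162 CPM (153 to 172) in trio cells, 186 in low-marker cells, 339.6 in cells with both and 434 (419 to 449) in long-gene cells. Btg2 stood at 64.5 against 169 CPM in trio and long-gene cells, Perp at 30.9 against 82.1 and Trp53inp1 at 111 against 248. Bax, a mediator of apoptosis, was the exception at 819.8 against 745 CPM. The summed level of the list was 1988 CPM in trio and 2072 in low-marker cells, and 2571 in cells with both and 2807 in long-gene cells, and over all genes 44.9% stood above zero in this comparison. The Mdm2, Btg2, Perp and Trp53inp1 levels of trio cells were near those of naive-like cells (158, 48.3, 32.6 and 101 CPM).

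Other lists had medians above that of all genes against long-gene cells without any call, where 44.9% of all genes stood above zero. The primed and formative list had 16 of 19 members above zero with a median of 0.31, and the core pluripotency list 11 of 12 with 0.30. S phase genes had 27 of 30 above zero with a median of 0.27, while the G2 and M phase list had 13 of 30 and -0.02. The glycolysis and hypoxia list had 17 of its 19 members at 20 CPM or more above zero, with a median of 0.31 over all 24. Ldha, the enzyme that turns pyruvate to lactate, stood at 1134 CPM in trio, 980.0 in low-marker, 957 in both, 762 in long-gene and 509.9 in naive-like cells. The metallothioneins Mt1 and Mt2, which bind zinc and copper, stood at 2304 and 1304 CPM in trio cells, 2452 and 1296 in low-marker cells, and 1428 and 817 in long-gene cells; free RNA held 2339 and 1776 CPM of them. All 13 mitochondrially encoded genes stood below zero, with a median of -0.21.

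**Figure D5:**
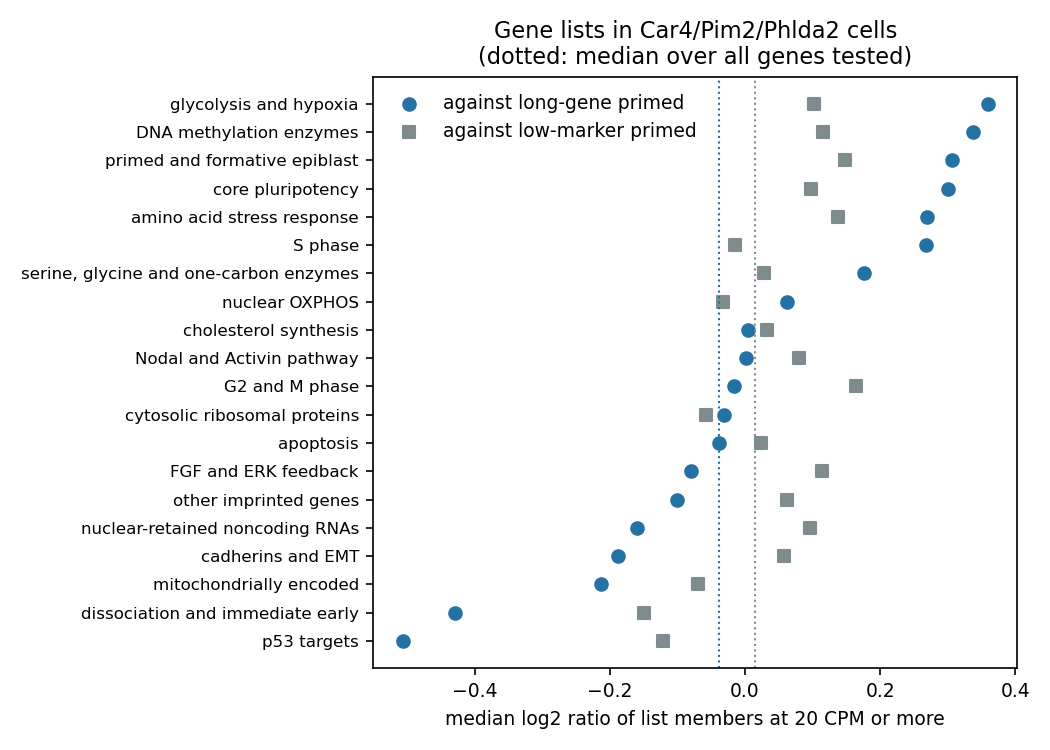
Median log2 ratio over the members at 20 CPM or more of 20 gene lists (those with at least 8 such members), for trio cells against long-gene primed cells (blue circles) and against low-marker primed cells (grey squares), with dotted lines at the medians over all genes. The p53 targets lie lowest against long-gene cells at -0.51, and the lists lie between -0.15 and 0.16 against low-marker cells.

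Against naive-like cells 189 of 6743 genes were higher (2.8%) and 258 lower (3.83%), 447 in all (6.63%). Both sets were chosen by 4 naive genes, so this contrast describes the choice and supports nothing about the label. Of the 12 naive pluripotency genes outside the rule, 9 were lower and none was higher: Klf4 was at a log2 ratio of -3.19, Tfcp2l1 at 6.27 against 62.3 CPM and Dppa3 at 43.1 against 200.2. Of the 19 primed and formative genes, 8 were higher and none lower: Fgf5, Pou3f1, Dnmt3a, Lef1, Sox3, Sall2, Cldn6 and Fgf15. Lef1, a transcription factor of WNT signalling, stood at 218 against 77.4 CPM. The homeobox factor Nanog (32.3 against 139 CPM) and Sox2 (118 against 340.5) were lower, while Pou5f1, a rule gene, stood at 663 against 711. The named genes with the highest ratios were Fst, the semaphorin Sema6a (111 against 15.4 CPM), Fgf5, Zfp608 (52.8 against 9.10), Xist (325 against 63.0), the RNA that coats the inactive X chromosome, and Pou3f1. The lowest were Tfap2c (4.32 against 85.1 CPM), Ntn1, Mylpf, Spp1 and Tfcp2l1. A UMI of Nanog was found in 6.67% of thinned trio cells and 2.75% of fibroblast-like cells (19.2% and 13.5% unthinned).

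Against caudal-like cells 198 of 7038 genes were higher in trio cells (2.81%) and 426 lower (6.05%), 624 in all (8.87%). Of 12 core pluripotency genes outside the rule, 4 were higher (Dppa2, Dppa4, Dppa5a and Utf1), 1 was lower (Nanog, 32.3 against 75.2 CPM) and 8 stood above zero, with a median of 0.36. Dppa2 stood at 88.9 against 12.6 CPM, Dppa4 at 155 against 25.5 and Utf1 at 227 against 43.2. Mt1 stood at 2304 against 332 CPM and Mt2 at 1304 against 225, though free RNA was as rich in them as trio cells. The glycolysis and hypoxia list had 5 members higher (Pgk1, Slc16a3, Pdk1, Bnip3 and Egln3) and none lower. The epithelial genes Cdh1, Epcam, Cldn6 and Esrp1 were higher and the mesenchymal genes Cdh2, Cdh11, Zeb1, Zeb2, Vim and Fn1 lower; E-cadherin (Cdh1) stood at 221 against 73.7 CPM and N-cadherin (Cdh2) at 23.7 against 100.3. Among primitive streak genes T (brachyury) stood at 5.44 against 168 CPM, and Wnt3, Wnt8a and Nkx1-2 were lower too. The posterior gene Hoxb2 stood at 1.67 against 70.6 CPM, the receptor Epha4 at 9.48 against 246 and Meis1 at 6.13 against 138. Of the WNT list, 6 of 18 members were lower and none higher.

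Of the markers of other cell types, none of 14 lateral mesoderm and haematoendothelial or of 10 macrophage markers reached 20 CPM in trio cells. The 10 macrophage markers summed to 4.46 CPM, with 2 of them at 0, and the 10 trophoblast markers to 39.4 CPM, with 2 at 0. The 12 primitive streak markers outside the rule summed to 67.5 CPM (61.6 to 73.7), against 340.6 in caudal-like cells and 63.7 in free RNA. The 14 neuroectoderm markers summed to 102 CPM, against 113 in low-marker cells. Fibroblast markers in trio cells (259 CPM) were below the free RNA level of 398 CPM. The 9 surface epithelium markers outside the rule, which include the epithelial genes Epcam and Cdh1 that pluripotent cells express too, summed to 794 CPM in trio, 777 in low-marker, 841 in long-gene and 578 in naive-like cells.

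Some relatives of the choosing genes were ordered over the primed sets as these were and others were not. Of 24 other carbonic anhydrase and bicarbonate transport genes, 2 reached 20 CPM against low-marker cells: Car2, the cytosolic enzyme, stood at 106 CPM in trio, 107 in low-marker, 99.7 in long-gene and 47.7 in naive-like cells. Pim1, a kinase with overlapping function to Pim2, stood at 117 CPM (109.7 to 126) in trio, 99.9 (91.7 to 109) in low-marker, 76.3 in long-gene and 124 in naive-like cells, and Pim3 at 35.8, 36.1, 26.5 and 80.8. Pim1 thus had the order of Pim2 over these primed sets, with trio cells first, but stood higher in naive-like than in long-gene cells, where Pim2 had the reverse order. In the PHLDA and Kcnq1 imprinted group, Phlda3, a p53 target, stood at 109.8 CPM in trio, 109 in low-marker and 156 in long-gene cells, and Phlda1 at 8.64, 14.5 and 16.7. Cdkn1c, the cell cycle inhibitor imprinted with Phlda2, stood at 11.2 (8.84 to 13.9), 6.60 (4.62 to 9.13) and 5.88 CPM. The noncoding RNA Kcnq1ot1 of that domain stood at 249, 237 and 329.6 CPM.

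Within the trio cells, the share of choosing UMIs, the depth and the tags each went with some of the genes read. When the cells were split into 3 groups by the share of choosing UMIs (330, 330 and 329 cells), Fst stood at 64.1 CPM (54.9 to 74.5), 91.9 and 116 (102.4 to 131) from the lowest to the highest group. Dnmt3b, a rule gene, stood at 521, 624 and 656 CPM, and Fgf5 at 57.0, 67.5 and 70.5 with overlapping intervals. S100a6, a calcium-binding protein abundant in fibroblasts, stood at 128, 128 and 49.7 CPM. These groups had median depths of 7615, 6616.5 and 6425 UMIs. By depth instead (medians 5321, 6918 and 9100 UMIs), S100a6 stood at 50.8, 97.6 and 136 CPM, Fst at 98.6, 86.2 and 86.1, and the Nodal inhibitor Lefty1 at 267, 185 and 169.9.

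Some of the genes read by tag differed. In 331 cells (33.5%) the tag CMO312 had more UMIs than CMO311, and in the other 658 it did not. Lefty1 stood at 137 CPM (123 to 152) in the first and 229 (216 to 244) in the second, and S100a6 at 58.6 and 127. Fst stood at 89.0 and 89.1, Pim2 at 540.3 and 538, and Pou3f1 at 240.2 and 263, with overlapping intervals. Only 1 trio cell was called to each tag in the deposited table, and 987 were unassigned.

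Cells on the 2 sides of a limit differed little at some limits and more at others. The 283 trio cells with exactly 3 choosing UMIs and the 338 primed cells with 2 stood at 64.9 and 58.5 CPM of Fst, 59.0 and 54.2 of Fgf5, 221 and 233 of Pou3f1, and 103 and 91.1 of Dnmt3a. At the long gene limit, 301 trio cells with 2 such UMIs and 215 cells with 3 stood at 80.6 and 81.8 CPM of Fst and at 256 and 246 of Pou3f1. At the limit on Meis2 and Fgf8, 156 trio cells and 65 cells just outside stood at 222 and 163 CPM of Pou3f1, 108 and 140.2 of Fst, and 63.5 and 88.7 of Fgf5. At the limit on naive genes, 117 and 80 cells stood at 52.7 and 35.2 CPM of Fgf5, and at that on Pou5f1 and Dnmt3b, 100 and 79 cells stood at 233 and 287 of Pou3f1.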

How the data were processed

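Cell Ranger 8.0.1 made the deposited raw UMI counts, per the file headers, for 33696 genes and 12 tag oligos. Seurat is named without a version in the submitters' processing notes. For 21593 called cells the authors deposited tag calls with probabilities (a fraction from 0 to 1); only the barcodes and calls were used. The authors' genome build and annotation are not named in the sources read.

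The members, gene lists and tests were chosen with earlier results of these data known. UMIs were summed over each set with Python 3.11.15, numpy 2.4.6, scipy 1.17.1 and pandas 2.3.3; the planned comparison of samples could not be made, and with 1 pooled library no test was run. Ratios are differences of log2(CPM + 1), called at 2-fold with at least 20 CPM in the higher set. CPM have exact Poisson and shares exact binomial 95% intervals; a count of 0 allows up to 3 counts. Thinning was to 2000 UMIs for shares of cells, which left out 7 low-marker primed cells and 1 fibroblast-like cell, and to 4000 for the split by long genes. Free RNA was not removed, and doublets called by Scrublet (expected rate 0.1; 37 trio cells, 3.74%) were left in except under 1 alternative. The scripts were tested on simulated data.

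Named genes are Car4, Pim2, Phlda2, Pou3f1, the 10 highest and 5 lowest ratios per comparison with at least 50 CPM (no rule, provisional, mitochondrial or ribosomal protein genes) and up to 4 members of each of 37 lists. Genes named beside a count of calls or a list, the genes of the second pair of sets, the neighbours of Pim2, and S100a6 and Lefty1 within trio cells were chosen after their values were seen. Spans and distances come from GENCODE M21, matched on Ensembl identifier for 99.7% of tested genes; it may not be the authors' annotation.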

Additional observations from a re-analysis of the deposited data

Results flagged for a closer look

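The tag CMO312 had a median of 560.0 UMIs in trio cells, above the level of 478 UMIs that 90% of the cell-free droplets did not pass (median 340). It was looked at because none of the compared sets was picked by the tags, which were used only to split trio cells and under alternative settings. The median was higher in primed cells with both, at 572 UMIs. Low-marker primed cells, at 500.5, also passed that level, so it was not particular to trio cells. Long-gene primed cells had a median of 462 UMIs and naive-like cells 334. The tag CMO311 had a median of 832 UMIs in trio cells and 830 in cell-free droplets. What the tags stand for is not given in the sources used here.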

How the results depend on the processing

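Over 14 listed settings and 4 chosen after seeing the data, the 105 ratios of 81 named genes gave 1750 values, of which 222 moved by at least 0.25 and 18, over 15 genes, had the other sign. Some settings, such as those of the minimum level, cannot move a ratio. Of ratios past 2-fold, 2 changed sign. These were Spp1 against long-gene cells, at 0.38 in place of -2.27 with the rule applied to cells thinned to 4000 UMIs, and Eif1ad10 against low-marker cells, at 0.47 in place of -2.49 without cells holding two-cell-like, collagen, Mmp3 or Spp1 UMIs. Against low-marker cells Aldh1a3 (0.44) was at -0.01 with thinned rules and -0.10 with 3 UMIs of Pim2 alone, and Xaf1 (0.39) at -0.03 in cells with more CMO312. The share of kept cells in the rule was 5.87%. It was 7.01% with a minimum of 2000 genes and a mitochondrial maximum of 5%, 4.04% with all rules on thinned cells, 6.30% without called doublets, 7.88% and 2.98% with at least 2 and 5 choosing UMIs, 8.05% and 5.16% in cells with more CMO312 and more CMO311, 4.08% with 3 UMIs of Pim2 alone and 1.28% with 3 of Car4 and Phlda2. With thinned rules the calls were 77 in place of 131 against long-gene cells and 1 in place of 12 against low-marker cells. A minimum of 50 CPM gave 52, 2, 209 and 324 calls against long-gene, low-marker, naive-like and caudal-like cells, and no minimum gave 528, 214, 1270 and 2043 (447 and 624 were the reported counts of the last pair of sets). Summing thinned cells gave 203 and 23 against the first pair of sets, cells with more CMO312 gave 42 against low-marker and 965 against caudal-like cells, and leaving out the two-cell-like, collagen, Mmp3 and Spp1 cells gave 0 against low-marker cells. Against low-marker cells the higher calls were 0.0% of all calls, but 32.7% with no minimum, 23.8% in cells with more CMO312, 21.7% in thinned sums, 18.2% with 3 UMIs of Car4 and Phlda2, and 12.5% with at least 5 choosing UMIs or in cells with more CMO311; against caudal-like cells they were 31.7%, and 42.7% with thinned rules. The causes were not tested. No paired analysis was possible because the counts form 1 pooled sample. One library gives no spread between cultures, and depth limits genes under 20 CPM.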
